A study of Homo sapiens with 9 samples.

Results

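The 10 genes described here encode components of the Hippo pathway, its transcriptional effectors and genes that those effectors switch on: CYR61, CTGF, ANKRD1, AMOTL1, AMOTL2, AJUBA, LATS2, YAP1, WWTR1 and TEAD1. They were taken by symbol from a raw count table of 58684 genes, and all 10 were found and passed the filter on low counts that left 17396 genes. The genes were selected on earlier results of the same libraries, so their differences are given below as levels, log2 fold changes and counts, without p-values. Lists of further genes were also drawn up with earlier results known, so the adjusted p-values printed for those genes are a description only. The libraries came from Huh7 cells, a long-established line from a human hepatocellular carcinoma, grown in culture. All 3 groups were stable pools infected with lentivirus from HEK293T cells that delivered a hairpin from the pLKO.1 vector, and all were selected with puromycin. The hairpin was a control in shControl, targeted IMPDH1 in shIMPDH1 and targeted IMPDH2 in shIMPDH2, with 3 libraries in each group. IMPDH1 and IMPDH2 are the isozymes of inosine monophosphate dehydrogenase, which makes the precursor of guanine nucleotides, and the design compares the transcripts of cells in which either isozyme is lowered. The sources used here do not give the number of hairpins per gene or their sequences, so effects of a hairpin and of its target cannot be told apart. The series text calls the replicates biological but describes no separate cultures, and p-values then measure only the spread between these samples.

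In the Hippo pathway, a cascade of kinases that ends in LATS1 and LATS2 phosphorylates the coactivators YAP1 and TAZ, the product of WWTR1, and keeps them out of the nucleus. When the kinases are inactive, YAP1 and TAZ enter the nucleus, bind the TEAD transcription factors, and raise transcription of genes such as CYR61, CTGF and ANKRD1. Several genes switched on in this way, among them LATS2 and AMOTL2, encode proteins that restrain YAP1 and TAZ again. In liver the pathway is known for limiting organ size, and YAP1 activity is frequent in liver cancer. Most of this control acts on proteins, by phosphorylation and location, which counts of RNA do not measure.

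TEAD proteins bind the letters GGAATG, and promoter windows of the members are shown to place this motif in their sequence. Known targets of TEAD are among the members, so matches were likely from the choice of genes, and their counts are a description only. RefSeq promoters on GRCh38.p14, from 250 bases before to 50 bases after the transcription start, were matched for 8 of the 10 genes, all but CYR61 and TEAD1. GGAATG, searched on both strands, was found in 6 of these 8 windows: 3 matches for CTGF, 2 for ANKRD1, and 1 each for AMOTL2, AJUBA, LATS2 and YAP1. No match lay in the windows of AMOTL1 and WWTR1. Both of these windows lie inside the gene spans given below, so annotated starts further upstream were not searched. The AJUBA match lies within an annotated exon, and the LATS2 match lies 9 bases after the RefSeq start. Among all 35116 promoters of the same length, 14% held at least 1 match, 1.37% at least 2 and 0.128% at least 3. A match describes the letters and does not show that a factor binds there. The stretches below run 5′ to 3′ in the direction of the gene, with the TEAD motif, or its reverse complement CATTCC, in capitals. They are the CTGF promoter upstream of the annotated exon (chr6:131951374-131951622, minus strand), the ANKRD1 promoter upstream of its annotated exon (chr10:90921277-90921337, minus strand), the other ANKRD1 site, which lies within the GENCODE exon (chr10:90921198-90921227, minus strand), the AMOTL2 site, also within an annotated exon (chr3:134374499-134374528, minus strand), and the YAP1 site upstream of the annotated gene (chr11:102110273-102110302, plus strand).
CTGF promoter: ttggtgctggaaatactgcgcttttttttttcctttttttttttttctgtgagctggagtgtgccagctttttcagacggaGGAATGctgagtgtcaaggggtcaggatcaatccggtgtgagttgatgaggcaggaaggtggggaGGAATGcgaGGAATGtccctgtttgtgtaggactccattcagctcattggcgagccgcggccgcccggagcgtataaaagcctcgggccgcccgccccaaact
ANKRD1 promoter: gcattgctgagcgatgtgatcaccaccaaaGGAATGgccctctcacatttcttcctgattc
ANKRD1 second site: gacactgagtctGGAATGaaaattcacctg
AMOTL2 site: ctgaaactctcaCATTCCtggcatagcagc
YAP1 site: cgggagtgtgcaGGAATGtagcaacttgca
In the CTGF window the motif starts 169, 104 and 95 bases before the RefSeq start, so the latter pair lies close together. In ANKRD1 it starts 220 and 128 bases before the start, and the AP-1 motif TGANTCA lies between them, 195 bases before the start. TGANTCA was in no other of the 8 windows and in 7.71% of all promoters. CTGF also holds the TATA box letters TATAAA, 32 bases before the start, as do 11.5% of all promoters. The CArG box, the motif of serum response factor, was in none of the 8 windows and in 1.29% of all promoters. At that share 8 windows without a match were likely for any genes, and CYR61 had no window, so nothing is read from this.

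Library totals ranged from 44560837 to 58370328 counts, and 3 counts were worth 0.0519 to 0.0674 CPM, the unit used below for levels after TMM scaling between libraries. The members' raw counts lay far above that, from 728 for WWTR1 to 16535 for AJUBA. Each hairpin's target was low in its own group: IMPDH1 averaged 62.7 CPM in shControl, 24.5 in shIMPDH1 and 70.3 in shIMPDH2, and IMPDH2 averaged 228, 274 and 110 CPM. All 10 hepatocyte markers exceeded 1 CPM in every library, with a summed level of 36193 to 38358 CPM in shControl, 41946 to 43298 in shIMPDH1 and 43834 to 45011 in shIMPDH2. No blood marker of 4 reached 1 CPM in any library, and HBB and the endothelial marker KDR had no counts. In each group replicate 1 differed most from the others. Its mean chi-square per gene in shControl was 5.93 and 7.23, against 1.96 between replicates 2 and 3. The values were 3.92 and 4.04 against 2.13 in shIMPDH2, and 2.28 and 2.46 against 1.81 in shIMPDH1.

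CYR61 (chromosome 1, positions 85580761 to 85583962, plus strand of GRCh38), CTGF (chromosome 6, positions 131948176 to 131951373, minus strand) and ANKRD1 (chromosome 10, positions 90912096 to 90921276, minus strand) are the genes most often used to read YAP and TEAD activity. CYR61 and CTGF encode secreted matrix-associated proteins of one family, and ANKRD1 encodes an ankyrin repeat protein of the nucleus and the muscle sarcomere. All 3 were lowest in shIMPDH1, intermediate in shControl and highest in shIMPDH2, with no overlap between the libraries of any pair of groups. Of all genes, 26.8% lay wholly below shControl in shIMPDH1, and 23% lay wholly above it in shIMPDH2. The share that did both is not given here, so nothing is read from the order. CYR61 differed most from shControl in shIMPDH1, at 1.90-fold lower, and ANKRD1 differed most in shIMPDH2, at 1.50-fold higher. Because these are bulk libraries, a lower level in part of the cells and less RNA per cell cannot be told apart.

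CYR61 was at 40.5, 39.2 and 40.2 CPM in the shControl libraries, at 20.6, 20.4 and 21.96 CPM in shIMPDH1 and at 56.5, 53.5 and 56.0 CPM in shIMPDH2. The gaps between groups were several times the spread within them: the SD was 0.713 CPM in shControl, 0.848 in shIMPDH1 and 1.62 in shIMPDH2. Its log2 fold change was -0.93 (SE 0.041) in shIMPDH1 against shControl and 0.47 (SE 0.037) in shIMPDH2 against shControl, comparisons that share the shControl libraries. Between the knockdowns it was 1.40 (SE 0.040), or 2.64-fold higher in shIMPDH2, a rank of 17283 counted from the lowest of 17396 genes.

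ANKRD1 was at 61.2, 60.3 and 62.4 CPM in shControl, at 38.1, 34.6 and 35.0 CPM in shIMPDH1 and at 95.4, 88.2 and 92.0 CPM in shIMPDH2. The highest shIMPDH1 library, replicate 1, was still far below the lowest control. Log2 fold changes were -0.77 (SE 0.039) for shIMPDH1 and 0.58 (SE 0.035) for shIMPDH2, each against shControl, and 1.36 (SE 0.038) for shIMPDH2 against shIMPDH1.

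CTGF differed least between groups among these 3 target genes. It was at 139.8, 139.5 and 139.3 CPM in shControl, at 112.0, 110.55 and 111.4 CPM in shIMPDH1 and at 148.8, 150.7 and 156.25 CPM in shIMPDH2. The control libraries had an SD of 0.297 CPM, and each knockdown lay wholly to one side of them. The log2 fold changes were -0.33 (SE 0.027) and 0.12 (SE 0.026) against shControl, and 0.45 (SE 0.026) between the knockdowns. The ratio of CTGF to CYR61, both per kilobase of exon, was therefore not constant: 3.62 to 3.74 in shControl, 5.33 to 5.70 in shIMPDH1 and 2.76 to 2.96 in shIMPDH2. Of the CTGF exon bases, 8.34% overlap exons of a gene on the opposite strand, and whether the counting used strand is not given in the sources used here.

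**Figure D1:**
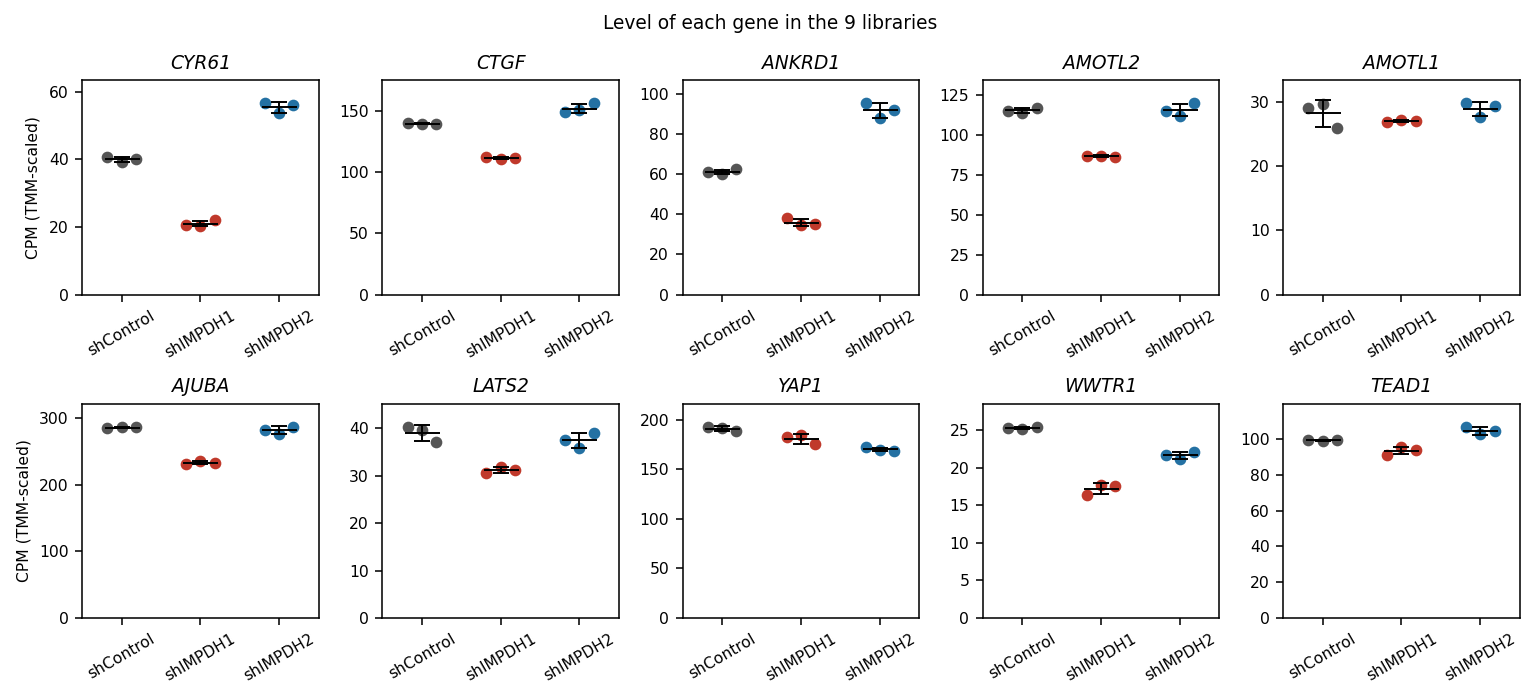
Level of each of the 10 genes in the 9 libraries, in CPM scaled with TMM factors on a y axis that starts at 0; points are libraries in replicate order, and bars give the mean and SD of the 3 libraries of a group. CYR61, CTGF and ANKRD1 step from shIMPDH1 to shControl to shIMPDH2, while AMOTL2, AJUBA and LATS2 are low in shIMPDH1 with shControl and shIMPDH2 overlapping.

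AMOTL2, AJUBA and LATS2 encode proteins that act on the pathway itself, and all 3 were lower in shIMPDH1 but overlapped shControl in shIMPDH2. A share of 26.8% of all genes likewise lay wholly below shControl in shIMPDH1. AMOTL2 (chromosome 3, positions 134355874 to 134375479, minus strand) encodes an angiomotin that holds YAP1 at cell junctions. AJUBA (chromosome 14, positions 22971174 to 22982642, minus strand) encodes a LIM domain protein that binds and restrains the LATS kinases. LATS2 (chromosome 13, positions 20973032 to 21061547, minus strand) encodes one of those kinases.

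AMOTL2 was at 115.4, 114.1 and 117.3 CPM in shControl, at 87.0, 87.1 and 86.0 CPM in shIMPDH1 and at 115.1, 112.1 and 120.05 CPM in shIMPDH2. The shIMPDH2 libraries spanned the controls on both sides. Its log2 fold change was -0.41 (SE 0.029) in shIMPDH1 and 0.00 (SE 0.028) in shIMPDH2, each against shControl.

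AJUBA was at 285.1, 286.0 and 285.7 CPM in shControl, at 230.4, 235.55 and 232.4 CPM in shIMPDH1 and at 282, 276 and 287 CPM in shIMPDH2. It had the highest count of the 10 genes and the smallest SD among the controls relative to its mean, 0.164%. Its log2 fold change was -0.29 (SE 0.024) in shIMPDH1 and -0.02 (SE 0.024) in shIMPDH2 against shControl.

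LATS2 was at 40.4, 39.5 and 37.1 CPM in shControl, at 30.7, 31.8 and 31.2 CPM in shIMPDH1 and at 37.5, 35.9 and 39.0 CPM in shIMPDH2. Its lowest control was above every shIMPDH1 library and inside the range of shIMPDH2. Against shControl its log2 fold changes were -0.32 (SE 0.041) and -0.06 (SE 0.040). Between the knockdowns, all 3 genes lay wholly above shIMPDH1 in shIMPDH2, as did 25.4% of all genes. The log2 fold changes were 0.42 (SE 0.029) for AMOTL2, 0.28 (SE 0.024) for AJUBA and 0.26 (SE 0.041) for LATS2.

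AMOTL1 (chromosome 11, positions 94706431 to 94876753, plus strand), another angiomotin, was the member whose groups differed least. It was at 29.1, 29.75 and 25.9 CPM in shControl, at 26.8, 27.2 and 26.97 CPM in shIMPDH1 and at 29.8, 27.7 and 29.3 CPM in shIMPDH2. Replicate 3 of shControl lay below every other library, so the control range enclosed the shIMPDH1 libraries. The log2 fold change was -0.07 (SE 0.048) in shIMPDH1, 0.03 (SE 0.047) in shIMPDH2 and 0.10 (SE 0.048) between the knockdowns. Without shControl replicate 3 the values against shControl were -0.12 (SE 0.046) in shIMPDH1, which then passed the threshold, and -0.02 in shIMPDH2. Without shIMPDH2 replicate 2 the value between the knockdowns was 0.13 (SE 0.052) and passed, as did 0.11 (SE 0.042) from a fit to the 2 groups alone. The ratio of AMOTL2 to AMOTL1 per kilobase of exon was 6.43 to 7.60 in shControl, 5.35 to 5.44 in shIMPDH1 and 6.47 to 6.87 in shIMPDH2.

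YAP1 (chromosome 11, positions 102110461 to 102233423, plus strand) and WWTR1 (chromosome 3, positions 149517235 to 149736714, minus strand) encode the coactivators themselves, and both were below shControl in all libraries of both knockdowns. Of all genes, 26.8% lay wholly below shControl in shIMPDH1 and 23.7% in shIMPDH2, and the share below in both is not given here. YAP1 was at 193.3, 192.0 and 188.8 CPM in shControl, at 182.3, 185.1 and 175.6 CPM in shIMPDH1 and at 172.45, 169.6 and 169.1 CPM in shIMPDH2. The differences were small, with log2 fold changes of -0.08 (SE 0.026) and -0.17 (SE 0.026) against shControl and -0.09 (SE 0.026) for shIMPDH2 against shIMPDH1. YAP1 was the only one of the 10 genes below shIMPDH1 in shIMPDH2. Its value in shIMPDH1 was -0.06 (SE 0.029) without shIMPDH1 replicate 3, and that between the knockdowns was -0.07 (SE 0.030) without shIMPDH1 replicate 2, and neither then passed the threshold.

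WWTR1 was at 25.3, 25.2 and 25.5 CPM in shControl, at 16.4, 17.8 and 17.6 CPM in shIMPDH1 and at 21.7, 21.2 and 22.1 CPM in shIMPDH2. Unlike YAP1, it was lowest in shIMPDH1. Its log2 fold change was -0.55 (SE 0.046) in shIMPDH1 and -0.22 (SE 0.044) in shIMPDH2 against shControl, and 0.33 (SE 0.047) for shIMPDH2 against shIMPDH1. Per kilobase of exon, YAP1 exceeded WWTR1 by 9.89 to 10.2 times in shControl, 13.3 to 14.9 times in shIMPDH1 and 10.2 to 10.7 times in shIMPDH2. Exons of genes on the opposite strand overlap 9.975% of the YAP1 exon bases and 9.45% of those of WWTR1, and the antisense gene WWTR1-AS1 had 1 to 13 counts per library.

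TEAD1 (chromosome 11, positions 12674591 to 12944483, plus strand), the DNA-binding partner, was at 99.8, 98.9 and 99.3 CPM in shControl, at 91.4, 95.7 and 93.7 CPM in shIMPDH1 and at 107, 103 and 104 CPM in shIMPDH2. Its libraries stood in the order of CYR61, CTGF and ANKRD1 without overlap, over a much narrower range, and the share of all genes in that order is not given here. Log2 fold changes were -0.09 (SE 0.028) in shIMPDH1 and 0.08 (SE 0.028) in shIMPDH2 against shControl, and 0.16 (SE 0.028) between the knockdowns. The difference in shIMPDH1 did not pass the threshold without shIMPDH1 replicate 1, at -0.07 (SE 0.032). That in shIMPDH2 did not pass without shControl replicate 2 (0.08), shControl replicate 3 (0.08), shIMPDH2 replicate 1 (0.06) or shIMPDH2 replicate 3 (0.08), nor with upper quartile factors (0.07) or no filter on low counts (0.07).

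A gene was called at an adjusted p under 0.05 in edgeR's quasi-likelihood test over all 17396 genes. In shIMPDH1 against shControl, 9 of the 10 genes were called lower, beside 22.8% of all genes, and none was called higher, beside 20.6%. AMOTL1 was not called. The 3 shIMPDH1 libraries lay wholly below the controls for the same 9 genes, as for 26.8% of all genes, and wholly above for none, beside 24.9%. Since the genes were chosen by results of this comparison, nothing is read from these counts. The median log2 fold change of the 10 genes was -0.32, and that of all genes was 0.00.

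For shIMPDH2 against shControl, CYR61, CTGF, ANKRD1 and TEAD1 were called higher, 4 of 10 beside 18.6% of all genes. YAP1 and WWTR1 were called lower, 2 of 10 beside 19.9%, and AMOTL1, AMOTL2, AJUBA and LATS2 were not called. The libraries of the same 4 genes lay wholly above the controls (23% of all genes) and those of the same 2 wholly below (23.7%). The median was 0.02 for the 10 genes and 0.01 for all genes. Between the knockdowns 8 genes were called higher in shIMPDH2, beside 21.7% of all genes. YAP1 was called lower, beside 22.2%, and AMOTL1 was not called. Here 9 genes had all shIMPDH2 libraries above shIMPDH1, beside 25.4% of all genes, and 1 had them below, beside 26.1%. The median was 0.30, against -0.01 for all genes.

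**Figure D2:**
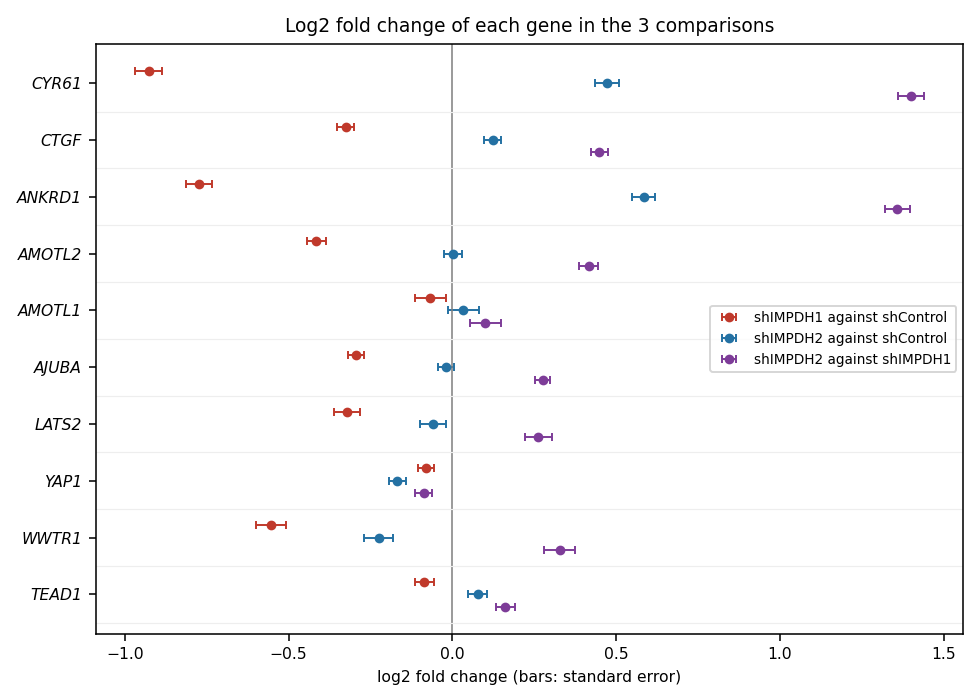
Log2 fold change (x axis) of the 10 genes in the 3 comparisons, with bars for the standard error; the later-named group is the reference, and the 2 comparisons against shControl share its libraries. The shIMPDH1 points range from -0.93 for CYR61 to -0.07 for AMOTL1, and the shIMPDH2 points from -0.22 for WWTR1 to 0.58 for ANKRD1.

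Levels of different genes can be ordered only per length, and the order below is of mean CPM per kilobase of annotated exon. In shControl it ran CTGF 59.6, AJUBA 47.8, ANKRD1 31.0, YAP1 30.4, AMOTL2 19.3, CYR61 16.3, TEAD1 9.665, LATS2 6.99, WWTR1 3.01 and AMOTL1 2.81. ANKRD1 and YAP1 overlapped between libraries, and WWTR1 exceeded AMOTL1 by less than the SD of AMOTL1, 0.206. In shIMPDH1, ANKRD1 stood at 18.1, below YAP1 at 28.8, and CYR61 stood at 8.55, beside TEAD1 at 9.11, with overlapping libraries. In shIMPDH2, ANKRD1 stood at 46.4, within the spread of AJUBA at 47.1, and CYR61 stood at 22.55, above AMOTL2 at 19.3. CTGF had the highest mean in all 3 groups.

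**Figure D3:**
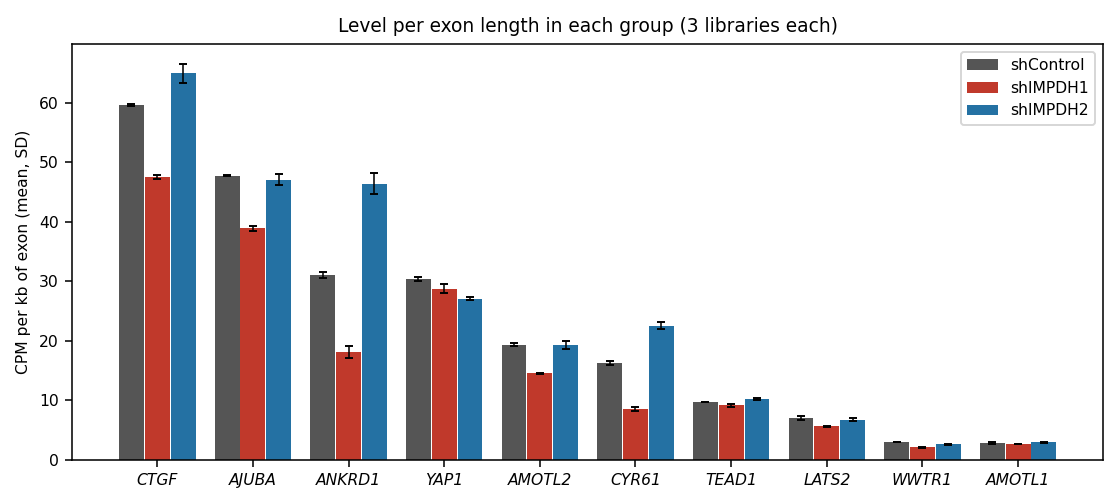
Mean level of each gene in CPM per kilobase of annotated exon (y axis, from 0) in shControl, shIMPDH1 and shIMPDH2; bars are means of 3 libraries and error bars their SD. CTGF is highest in every group, and WWTR1 and AMOTL1 are lowest, at 3.01 or less.

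The genes whose pattern over the 9 libraries was nearest to that of CYR61 were found by Euclidean distance between log2 CPM values centred on each gene's mean, among 11074 genes whose log2 CPM averaged 2 or more. They were CACFD1 (distance 0.165), TNS1 (0.210), BICC1 (0.234), ANKRD1 (0.252) and RASL12 (0.324). ANKRD1 thus had rank 4, while CTGF had rank 421 and AMOTL2 rank 476. CACFD1 averaged 33.1 CPM in shControl, 16.7 in shIMPDH1 and 45.03 in shIMPDH2. TNS1, which encodes tensin, a focal adhesion protein that binds actin, averaged 12.4, 6.77 and 18.4 CPM. These distances rest on 9 libraries in 3 groups, so they mostly compare 3 group means.

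Of the other TEAD factors, TEAD2 fell in both knockdowns and TEAD3 rose in shIMPDH2. Amounts by which a gene fell, rose or was called higher or lower are, here and below, log2 fold changes against shControl. TEAD2 went from 34.6 CPM (SD 0.202, n = 3) in shControl to 30.6 in shIMPDH1 (log2 fold change -0.18, adjusted p = 0.00044, edgeR) and 24.1 in shIMPDH2 (-0.52, adjusted p = 2.92e-11). TEAD3 went from 35.6 to 41.0 CPM in shIMPDH2 (0.20, adjusted p = 6.50e-05, edgeR) and was at 36.7 CPM in shIMPDH1. TEAD4 fell by 0.13 in shIMPDH1 (adjusted p = 0.021, edgeR), a call lost with DESeq2 (-0.13) and without shControl replicate 1 (-0.11), shControl replicate 2 (-0.13), shIMPDH1 replicate 1 (-0.12) or shIMPDH1 replicate 3 (-0.10). Per kilobase of exon, TEAD1 made up 21.6 to 22.2% of the 4 TEAD genes in shControl, 21.4 to 22.2% in shIMPDH1 and 23.4 to 24.4% in shIMPDH2. The TEAD2 share was 26.1 to 26.5% in shControl and 18.4 to 19.2% in shIMPDH2, and that of TEAD3 was 26.2 to 26.8% and 31.3 to 31.9%. Of the raw TEAD counts, TEAD1 made up 50.6 to 51.3% in shControl and 53.1 to 54.6% in shIMPDH2. Shares per kilobase rest on annotated exon lengths, 10279 bases for TEAD1 and 2272 to 3046 for the others. The annotation release used for counting is not given. VGLL4, a vestigial-like protein that competes with YAP1 for TEAD binding, fell by 0.21 in shIMPDH2 (adjusted p = 0.00016, edgeR), and 23.7% of its exon bases overlap genes on the opposite strand. VGLL3 rose by 1.98 in shIMPDH2 (SE 0.518, adjusted p = 0.0032, edgeR), from 0.040, 0.121 and 0.086 CPM in shControl to 0.425, 0.207 and 0.379 CPM, levels of few counts. VGLL2 was at 0.061 CPM or less in every library, and VGLL1 had no counts. In all, 5 of these 7 genes were tested: 2 fell and none rose in shIMPDH1 against shControl, beside 22.8% and 20.6% of all genes. In shIMPDH2 against shControl 2 rose (TEAD3 and VGLL3) and 2 fell (TEAD2 and VGLL4), beside 18.6% and 19.9%.

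A list of 17 further targets of YAP and TEAD, with none of the 10 genes in it, held 15 genes with enough counts. AXL and FOXF2 were at 0.274 CPM or less in every library. In shIMPDH1 against shControl, 10 of the 15 fell, beside 22.8% of all genes, and 1 rose, beside 20.6%, with a median log2 fold change of -0.20 (all genes 0.00). In shIMPDH2 against shControl, 5 rose, beside 18.6% of all genes, and 4 fell, beside 19.9%, with a median of 0.04 (all genes 0.01). Between the knockdowns 11 were called higher in shIMPDH2, beside 21.7% of all genes, and 3 lower, beside 22.2%, with a median of 0.30 (all genes -0.01). The members were not in the list, but it was drawn up with earlier results of these libraries known and is not independent evidence of a direction.

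MYOF, which encodes the membrane repair protein myoferlin, fell most in shIMPDH1. It was at 20.7, 22.3 and 21.7 CPM in shControl, at 9.48, 9.16 and 8.64 CPM in shIMPDH1 and at 12.7, 12.6 and 13.9 CPM in shIMPDH2. The log2 fold change was -1.25 (SE 0.058, adjusted p = 1.07e-15, edgeR) in shIMPDH1 and -0.73 (SE 0.055, adjusted p = 2.37e-11) in shIMPDH2, so it fell in both. F3, encoding tissue factor, which starts coagulation, fell by 0.67 in shIMPDH1 (adjusted p = 3.39e-10, edgeR) and was not called in shIMPDH2 (0.04). DOCK5, a guanine nucleotide exchange factor for Rac, fell by 0.52 (adjusted p = 1.54e-11, edgeR) in shIMPDH1. It was not called in shIMPDH2 (0.09), though it was called higher there in 6 of the alternatives. NUAK2, a kinase, fell by 0.51 in shIMPDH1 (adjusted p = 4.53e-09, edgeR) and rose by 0.17 in shIMPDH2 (adjusted p = 0.0049).

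CCDC80, a matrix protein gene, fell by 0.62 in shIMPDH1 (adjusted p = 2.1e-05, edgeR) and ARHGEF17 by 0.20 (adjusted p = 0.00027). NT5E, which encodes the enzyme CD73, rose by 0.17 in shIMPDH1 (adjusted p = 6.8e-05, edgeR) and fell by 0.25 in shIMPDH2 (adjusted p = 7.04e-07). IGFBP3, a carrier of insulin-like growth factors, fell by 0.57 in shIMPDH2 (adjusted p = 3.65e-05, edgeR), and FJX1 fell by 0.69 there (adjusted p = 0.00017). TGFB2 rose by 0.30 in shIMPDH2 (adjusted p = 0.00027, edgeR), PTPN14 by 0.24 (adjusted p = 0.00059), ASAP1 by 0.12 (adjusted p = 0.0015), and CRIM1 was called in neither knockdown.

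The other 4 genes called in shIMPDH1 lost that call when libraries were left out. IGFBP3 (-0.27) lost it without shControl replicate 3 (-0.26) or shIMPDH1 replicate 1 (-0.24). GADD45B (-0.17) lost it without shControl replicate 1 (-0.09), shIMPDH1 replicate 1 (-0.16) or shIMPDH1 replicate 2 (-0.15). PTPN14 (-0.14) lost it without shControl replicate 1 (-0.10), shControl replicate 3 (-0.14), shIMPDH1 replicate 1 (-0.10) or shIMPDH1 replicate 3 (-0.14). RBMS3, under 1 CPM in every library and with overlapping groups (-1.09), lost it without shControl replicate 1 (-0.93), shControl replicate 3 (-1.04), shIMPDH1 replicate 1 (-0.71) or shIMPDH1 replicate 2 (-0.94). These 4 were also the calls lost with DESeq2, which left 7 of the 15 genes called. Of 17907 genes, DESeq2 called 2976 higher and 3450 lower. In shIMPDH2, ARHGEF17 was called at 0.10 with overlapping libraries and lost the call in 8 of 13 alternatives, among them without shControl replicate 3 (0.06).

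**Figure D4:**
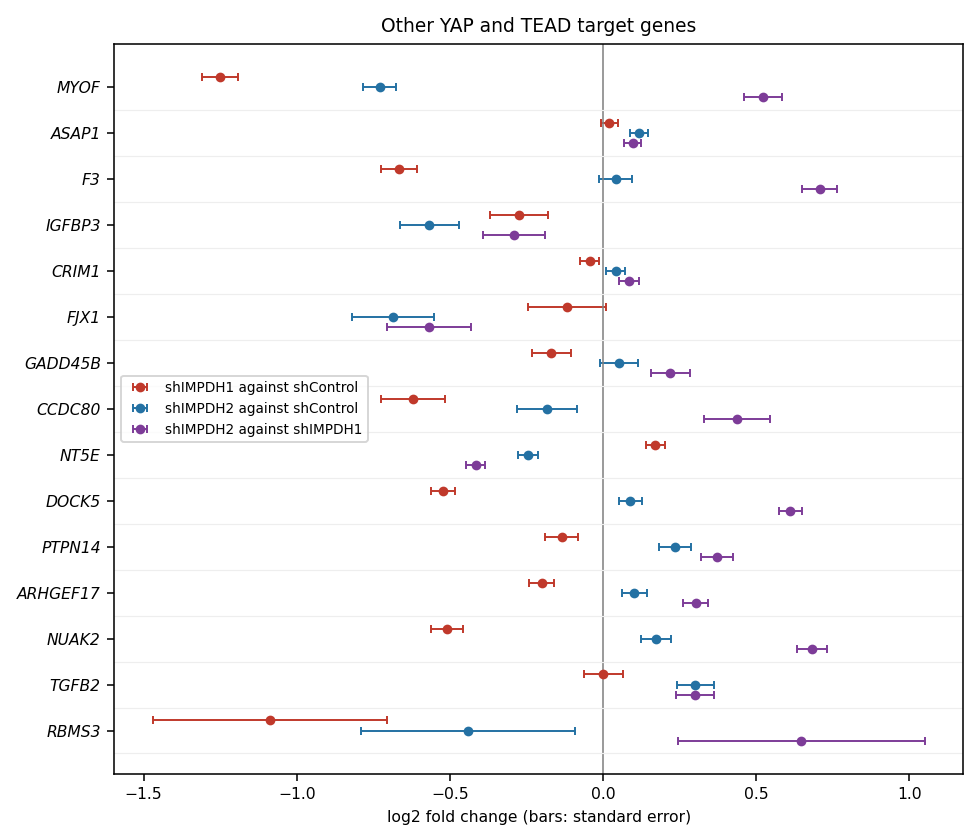
Log2 fold change (x axis) of the 15 measured further targets of YAP and TEAD in the 3 comparisons, with bars for the standard error and the later-named group as the reference. MYOF lies lowest in both comparisons with shControl, and NT5E lies above 0 in shIMPDH1 and below 0 in shIMPDH2.

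Upstream of YAP1 and TAZ, 26 genes of the kinases, their scaffolds and their receptors were all tested. In shIMPDH1 against shControl 9 fell, beside 22.8% of all genes, and 7 rose, beside 20.6%. In shIMPDH2 against shControl 7 fell, beside 19.9%, and 9 rose, beside 18.6%. DCHS1, a protocadherin that serves as a ligand at the cell surface, fell by 0.83 in shIMPDH1 (adjusted p = 3.47e-14, edgeR) and by 1.11 in shIMPDH2 (adjusted p = 9.99e-17). WWC3, a relative of the scaffold KIBRA, fell by 0.70 (adjusted p = 2.04e-08, edgeR) and 0.73 (adjusted p = 1.17e-08). WWC2 fell by 0.29 in shIMPDH1 (adjusted p = 4.54e-09, edgeR) but rose by 0.18 in shIMPDH2 (adjusted p = 1.26e-05). MAP4K4 rose by 0.20 in shIMPDH1 (adjusted p = 1.06e-07, edgeR) and was not called in shIMPDH2 (-0.02). NF2, encoding the scaffold merlin, rose by 0.22 (adjusted p = 4.2e-05, edgeR) and 0.31 (adjusted p = 2.75e-07). Of the genes of the core kinase module, MOB1A, the kinase cofactor, fell by 0.22 (adjusted p = 1.11e-06, edgeR) and 0.20 (adjusted p = 5.86e-06). STK3, STK4 and SAV1 were named after their values were seen and are given without p-values. STK4 was called in neither knockdown (-0.01 and -0.04), and STK3 was called higher in shIMPDH2, by 0.28 (SE 0.064). SAV1, the scaffold of these kinases, was called lower by 0.18 (SE 0.062) in shIMPDH1 and by 0.19 (SE 0.061) in shIMPDH2. The first call was lost with DESeq2 (-0.18) and without shControl replicate 2 (-0.16), shIMPDH1 replicate 1 (-0.17) or shIMPDH1 replicate 3 (-0.17), and the second with DESeq2 (-0.18) and without shControl replicate 2 (-0.16) or shIMPDH2 replicate 1 (-0.15).

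AMOT, the angiomotin related to AMOTL1 and AMOTL2, rose by 0.30 in shIMPDH1 (adjusted p = 6.61e-07, edgeR) and fell by 0.27 in shIMPDH2 (adjusted p = 7.24e-06). LATS1, the relative of LATS2, fell by 0.11 in shIMPDH1 (adjusted p = 0.020, edgeR), a call lost without shControl replicate 1 (-0.10), shControl replicate 2 (-0.11), shIMPDH1 replicate 2 (-0.11) or shIMPDH1 replicate 3 (-0.09). Of the 16 genes of STRIPAK, the phosphatase complex that opposes the upstream kinases, 5 rose and 3 fell in shIMPDH1 against shControl, beside 20.6% and 22.8% of all genes. In shIMPDH2 against shControl 7 rose and 4 fell, beside 18.6% and 19.9%. SLMAP, which ties STRIPAK to the kinases, rose by 0.17 in shIMPDH1 (adjusted p = 7.9e-05, edgeR) and fell by 0.13 in shIMPDH2 (adjusted p = 0.0020). The catalytic subunit gene PPP2CB rose by 0.27 in shIMPDH2 (adjusted p = 5.12e-09, edgeR), and STRN fell by 0.39 (adjusted p = 5.32e-07).

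Genes of the actin cytoskeleton, many of them targets of serum response factor, were listed because actin tension is a known input to YAP1. The list also held genes of transcription factors, among them serum response factor itself, so its counts are not of cytoskeleton genes alone. It was drawn up with earlier results of these libraries known. Of 24 measured, 17 fell and 1, a transcription factor gene, rose in shIMPDH1 against shControl, beside 22.8% and 20.6% of all genes. The median log2 fold change was -0.19 (all genes 0.00). In shIMPDH2 against shControl 10 rose and 5 fell, beside 18.6% and 19.9%, with a median of 0.02 (all genes 0.01). TAGLN, the actin-binding protein transgelin, averaged 51.0 CPM in shControl, 12.4 in shIMPDH1 and 107 in shIMPDH2. MYL9, a myosin light chain, fell by 1.06 (adjusted p = 9.12e-19, edgeR) in shIMPDH1 and rose by 0.60 (adjusted p = 1.41e-14) in shIMPDH2. ZYX rose by 0.58 (adjusted p = 6.35e-15, edgeR) and ACTN1 by 0.47 (adjusted p = 1.50e-14) in shIMPDH2. In shIMPDH1 neither was called (-0.03 and 0.06), though ACTN1 was called higher there in 6 of the alternatives. FLNA, the crosslinker filamin A, fell by 0.94 (adjusted p = 4.81e-21, edgeR) and by 0.29 (adjusted p = 9.9e-11).

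Fibroblast markers were listed because CYR61 and CTGF are also high in such cells. Their summed level was 31.3 to 33.1 CPM in shControl, 25.001 to 25.6 in shIMPDH1 and 26.5 to 26.8 in shIMPDH2, and DCN was at 0.061 CPM or less throughout. Of the 5 tested, 2 fell and none rose in shIMPDH1 against shControl, beside 22.8% and 20.6% of all genes, and 1 rose and 2 fell in shIMPDH2 against shControl, beside 18.6% and 19.9%. COL1A1 stood in the order of CYR61, at 4.94 CPM in shControl, 2.13 in shIMPDH1 and 6.25 in shIMPDH2. PDGFRA was called lower by 0.98 (SE 0.069) in shIMPDH2 and was not called in shIMPDH1 (0.12). PDGFRB was called lower by 0.64 (SE 0.061) in shIMPDH1 and by 0.17 (SE 0.058) in shIMPDH2. The call in shIMPDH2 was lost with DESeq2 (-0.16) and without shControl replicate 2 (-0.11) or shIMPDH2 replicate 3 (-0.16). COL3A1 (-0.14 and 0.01) and LUM (0.15 and 0.07) were called in neither. Endothelial markers summed to 12.3 to 13.5 CPM in shControl, 5.27 to 6.69 in shIMPDH1 and 6.82 to 8.03 in shIMPDH2, nearly all of it PECAM1, while CDH5 was at 0.443 CPM or less and VWF at 0.060 or less. The part of these genes in the result was not tested.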

How the data were processed

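Polyadenylated RNA was sequenced from 9 Huh7 libraries, 3 per group, with a strand-specific kit, per the labels' protocols. The authors deposited raw counts per gene, made with Trim Galore, cutadapt, STAR and featureCounts on hg38, per the submitters' processing notes. Versions, the annotation release, the strand setting and the handling of multiply mapped reads were not given in the sources used here. In R 4.3.3, edgeR 4.0.16 filtered low counts by group, scaled with TMM and fitted 1 quasi-likelihood model with group as its term to all 9 libraries (6 residual degrees of freedom). Each comparison was a contrast, with Benjamini-Hochberg adjustment over 17396 genes, a threshold of 0.05 and SE as the log2 fold change divided by the root of F. The fit was tested on simulated data. Alternatives used edgeR, DESeq2 1.42.0 and left-out libraries. The members and lists were chosen with earlier results of these data known. Every member and every measured TEAD-related and target gene is named; from other lists, up to 4 called genes of smallest p per comparison could be named, and those beside them (STK3, STK4, SAV1 and the markers of other cell types) were chosen after their values were seen. Gene positions and exon lengths come from GENCODE 29, which differs from the annotation of the counts, and promoters from RefSeq GRCh38.p14.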

Additional observations from a re-analysis of the deposited data

How the results depend on the processing

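No named gene that passed the threshold changed direction under any of the 13 alternatives of a comparison. With one library left out at a time, 8 to 10 of the 10 genes were called in shIMPDH1 against shControl (9 with all libraries), 5 to 6 in shIMPDH2 against shControl (6) and 8 to 10 between the knockdowns (9). These fits tested 17697 to 17844 genes. They called 2987 to 3374 higher and 3524 to 3786 lower in shIMPDH1 against shControl. The ranges were 2797 to 3011 and 2839 to 3248 in shIMPDH2 against shControl, and 3416 to 3620 and 3392 to 3615 between the knockdowns. Since the 10 genes were chosen on results of these libraries, their counts are a description only. The further targets called in shIMPDH1 against shControl numbered 11 with all libraries, 7 to 11 with one left out, the lowest without shIMPDH1 replicate 1, and 7 with DESeq2. Of all genes, 3585 of 17396 were called higher and 3967 lower with edgeR, and 2976 and 3450 of 17907 with DESeq2. No cause of the lower counts of further targets was tested. Deviations from the group mean correlated at -0.086 to 0.089 between same-numbered libraries of 2 groups, and at -0.084 to 0.107 between differently numbered ones. Equal replicate numbers thus showed no visible pairing, and a weak pairing was not tested. With the replicate number as a block, 9, 6 and 9 of the 10 genes and 11, 10 and 14 further targets were called in the 3 comparisons, in the order above. Of all 17396 genes, 3689, 3321 and 3860 were then called higher, and 4046, 3533 and 3992 lower. ANKRD1 was at -0.82 in shIMPDH1 against shControl and at 1.40 between the knockdowns without shIMPDH1 replicate 1. The 5 genes nearest to CYR61 shared 0 genes with the 5 of highest Pearson correlation, a measure that ignores the size of a change. The latter were TAGLN, MYL9, MYLK, ADAMTS12 and ALPK3. MYL9 had rank 6 by distance (0.330), so the absence of overlap depends on the cut at 5.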
